A study of Mus musculus with 12 samples.

Results

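The 10 genes listed as targets of p53 for DNA repair, stress signalling and metabolism were followed in HT22 cells: Ddb2, Xpc, Ercc5, Polk, Plk2, Plk3, Phlda3, Gdf15, Sesn1 and Ephx1. They were given as a list of names, and all 10 were found among the 24343 gene entries kept. HT22 is an immortalized line derived from mouse hippocampus. RNA-seq was carried out on 12 libraries, 3 biological replicates in each of 4 groups. Cells of the siControl group carried a negative control siRNA and had normal iron. Cells of the siNCOA4 group carried an siRNA against Ncoa4, the cargo receptor that takes ferritin to the lysosome so that its iron is set free. Each of these siRNA states was also treated with deferoxamine (DFO), an iron chelator, at 100 µM for 24 h, which gave the siControl+DFO and siNCOA4+DFO groups. All 4 groups had thus been through liposome transfection, and the knockdown rests on a single Ncoa4 siRNA, so that no second siRNA sequence is there to compare. The comparisons ask how these genes respond when iron import is limited, when Ncoa4 is lowered, and when both apply. The release of iron from ferritin is not measured in these data.

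p53 is a transcription factor that is held low by the ubiquitin ligase Mdm2 and is stabilized by DNA damage, lack of oxygen and other stress. It binds DNA sites made of a pair of short palindromic elements, and the genes it switches on halt the cell cycle, start cell death, repair DNA or shift metabolism. Several of the 10 genes also answer to other factors: Plk2 and Plk3 were first described as genes switched on early by serum, Gdf15 is induced by the ATF4 branch of the stress response, and Ephx1 belongs to the detoxifying enzymes.

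Levels are given in FPKM, fragments scaled by transcript length and by the mapped fragments of the library, so that genes can be compared per length. Fold changes and their standard errors (SE) are on the log2(FPKM + 0.1) scale from limma, with p-values adjusted by the Benjamini-Hochberg method over the 11924 genes that reached 0.5 FPKM in at least 3 libraries. A gene is said to have risen or fallen where its adjusted p was below 0.05. All 10 genes passed this filter. Gdf15 entered the test through its DFO libraries alone, so that its rise with DFO is no support for a count, and counts and medians are also given for the other 9 genes.

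The targeted gene was low in every library labelled with its siRNA. Ncoa4 was at 6.46, 6.19 and 6.02 FPKM in siControl and at 0.770, 0.952 and 0.891 FPKM in siNCOA4, and with DFO it was at 8.70, 8.31 and 7.52 FPKM under the control siRNA and at 0.850, 1.29 and 1.57 FPKM under the Ncoa4 siRNA. Relative depth, read from the steps between low FPKM values, spanned 1.52-fold between the shallowest library, siNCOA4+DFO replicate 3, and the deepest. That library also stood apart in correlation: its r with its own replicates was 0.926 and 0.934, whereas all other replicate pairs were at 0.947 or above. It held the lowest value of its group for 9 of the 10 genes and the highest for Sesn1, so results of the combination are also given without it. Small RNA genes took 38.0 to 41.4% of the summed FPKM in siControl, 36.5 to 40.9% in siNCOA4, 42.2 to 46.1% in siControl+DFO and 48.1 to 52.4% in siNCOA4+DFO. Of 9 neuronal markers only Tubb3 and Dlg4 exceeded 1 FPKM in any library, against all 5 mesenchymal markers, whose summed level was 3105 to 3532 FPKM in siControl, 2298 to 2497 in siNCOA4, 1847 to 1926 in siControl+DFO and 1633 to 1824 in siNCOA4+DFO. Of the markers of microglia, astrocytes and endothelium, only Tmem119 and Aldh1l1 exceeded 1 FPKM in any library, and P2ry12, Olig2 and Sox10 were listed at 0 in all. What part these shifts have in the results was not tested. In bulk RNA, fewer cells of a kind and less RNA per cell cannot be told apart.

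With DFO, 8 of the 10 genes rose and 1 fell. The risers were Ddb2, Ercc5, Polk, Plk2, Plk3, Phlda3, Gdf15 and Ephx1, Sesn1 fell, and Xpc did not pass the test. Among all genes tested, 27.7% rose and 25.7% fell in the same comparison. Of the risers, 6 passed the threshold of the study, a fold change above 2 with an adjusted p below 0.05, as did Sesn1 on the lower side, against 11.1% of all genes on the higher side and 7.76% on the lower. The 3 siControl+DFO libraries lay above all 3 siControl libraries for the 8 risers and below them for Sesn1, against 31.1% and 29.6% of all genes. The median log2 fold change of the 10 genes was 2.28, that of all genes tested -0.01. Without Gdf15, 7 of the other 9 genes rose, 5 of them past a fold change of 2, and the median was 2.11. These genes were proposed with earlier results of the same data in view, so the counts describe them and are no independent evidence of a direction.

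**Figure D1:**
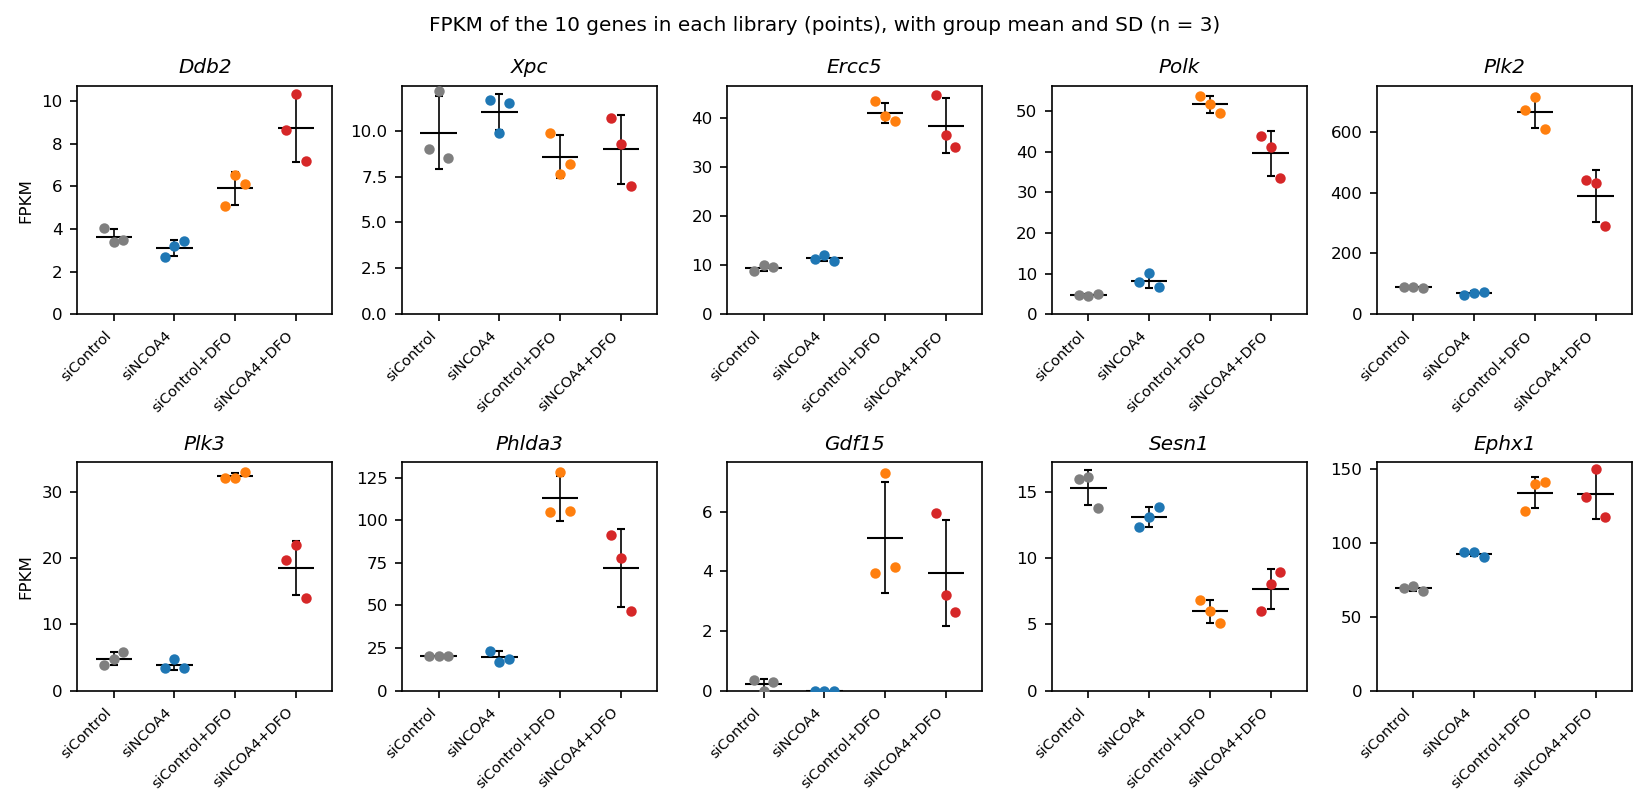
FPKM (vertical axes, linear from 0) of each of the 10 genes in the 12 libraries; points are libraries, bars the group mean with its SD (n = 3). The siControl+DFO libraries stood above those of siControl for 8 genes (31.1% of all genes tested) and below them for Sesn1 (29.6%). For Plk2 they were at 608.6 to 714.5 FPKM against 86.3 to 89.0 FPKM. For Xpc these groups overlapped.

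The repair genes did not move as a block. Ddb2 and Xpc recognize damage at the start of nucleotide excision repair, Ercc5 encodes the endonuclease XPG that cuts beside the lesion, and Polk encodes DNA polymerase kappa, which copies past bulky lesions. Ercc5 and Polk rose several-fold with DFO, Ddb2 rose by less than 2-fold, and Xpc stayed at its level within the spread of its replicates.

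Ddb2 (chr2:91211572-91236982, minus strand, mm10) encodes the damage-binding subunit of the UV-DDB complex. It was at 4.06, 3.38 and 3.47 FPKM in siControl, at 2.68, 3.21 and 3.41 FPKM in siNCOA4, at 5.06, 6.52 and 6.12 FPKM in siControl+DFO and at 8.65, 10.3 and 7.18 FPKM in siNCOA4+DFO. The 4 groups stood in 3 steps, with the combination highest, DFO alone next, and both untreated groups lowest and overlapping. The rise was 1.60-fold with DFO (log2 0.68, SE 0.17, adjusted p = 0.004999) and 2.34-fold with the combination (log2 1.23, SE 0.17, adjusted p = 8.164e-05), both against siControl. The Ncoa4 siRNA without DFO gave a log2 fold change of -0.23 (adjusted p = 0.4394). Ddb2 shares 652 exonic bases, 23.8% of its exonic length, with Acp2, a lysosomal phosphatase gene on the opposite strand. The library kit keeps strand, but whether the counting used it is not given in the sources used here. Acp2 itself had log2 fold changes of 0.11 with DFO (adjusted p = 0.5245) and 0.22 with the combination (adjusted p = 0.2195), and neither passed the test.

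Xpc (chr6:91489305-91515888, minus strand) encodes the sensor of helix distortion in global repair. Its level was 8.998, 12.2 and 8.49 FPKM in siControl, 11.7, 9.88 and 11.5 FPKM in siNCOA4, 9.90, 7.66 and 8.20 FPKM in siControl+DFO and 10.7, 9.28 and 6.97 FPKM in siNCOA4+DFO. All 4 groups overlapped. The 95% interval of its log2 fold change with DFO ran from -0.58 to 0.20, that with the combination from -0.53 to 0.25, and that with the siRNA alone from -0.22 to 0.56. With DFO and with the combination, the changes of Ercc5, Polk, Ddb2 and Ephx1 lay outside the matching interval of Xpc. A change of a size inside an interval is not excluded.

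Ercc5 (chr1:44147744-44181260, plus strand) went from 8.71, 9.98 and 9.68 FPKM in siControl to 43.4, 40.4 and 39.4 FPKM in siControl+DFO. With the Ncoa4 siRNA it was at 11.3, 12.1 and 10.8 FPKM without DFO and at 44.7, 36.6 and 34.1 FPKM with it. The 6 DFO libraries overlapped between the siRNAs and stood far above the other 6. DFO gave a 4.31-fold rise (log2 2.11, SE 0.10, adjusted p = 1.703e-08) and the combination a 4.01-fold rise (log2 2.01, SE 0.10, adjusted p = 4.08e-08). The siNCOA4 libraries lay above all siControl libraries, yet the difference of 0.27 on the log2 scale did not pass the test (adjusted p = 0.1194).

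Polk (chr13:96480690-96542579, minus strand) had the steepest rise of the repair genes. It was at 4.73, 4.41 and 4.86 FPKM in siControl and at 53.6, 51.8 and 49.5 FPKM in siControl+DFO, and at 7.96, 10.2 and 6.58 FPKM in siNCOA4 and 43.9, 41.2 and 33.5 FPKM in siNCOA4+DFO. The 4 groups did not overlap in any pair. The level was 10.9-fold higher with DFO (log2 3.44, SE 0.14, adjusted p = 4.775e-09), 8.28-fold higher with the combination (log2 3.05, SE 0.14, adjusted p = 1.926e-08) and 1.73-fold higher with the siRNA alone (log2 0.79, SE 0.14, adjusted p = 0.004704). By mean level it went from the eighth of the 10 genes in siControl, at 4.66 ± 0.232 FPKM (SD, n = 3), to the fourth in siControl+DFO, at 51.6 ± 2.04 FPKM.

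Because p53 acts through its binding site, the RefSeq promoter windows of the 10 genes (250 bases before to 50 after an annotated start, GRCm38.p6) were searched for pairs of the p53 consensus element of 10 bases, with a spacer of up to 13 bases. The element is a palindrome, so 1 search covers both strands. Windows were held for 8 of the 10 genes, and not for Ddb2 and Xpc. The best pair had at most 3 mismatches in 4 of the 8 genes, and these are printed in the direction of the gene, with the elements in capitals and the spacer in lower case.
Polk, chr13:96519398-96519418, 1 mismatch: GAACTAGCCTcAAACTTATTC
Sesn1, chr10:41887253-41887275, 2 mismatches: GCGCTTGGCCttcAAGCTTGTTT
Plk3, chr4:117134155-117134179, 3 mismatches: CGACTAGCTCaaccgGGGCTCCTTT
Ephx1, chr1:181017721-181017748, 3 mismatches: GAGGAAGGCTgtagcaccAGGCCAGCTT
The Polk site begins 231 bases before an inner start of the gene and the Sesn1 site 186 bases before one, and both lie inside the gene outside its exons. The Plk3 site begins 216 bases before the start and outside any annotated gene, and the Ephx1 site 179 bases before a start, inside the gene and outside its exons. Among 32851 promoter windows, 1.09% held a pair with at most 1 mismatch, 10.1% with at most 2 and 45.1% with at most 3, so that matches like those of Plk3 and Ephx1 are common. The genes with the closest matches went opposite ways with DFO, since Polk rose and Sesn1 fell. A match is a description of the letters, not a bound site, and the windows do not cover introns or distant elements.

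The polo-like kinases Plk2 and Plk3, kin of the mitotic kinase Plk1, act in stress responses, and Plk2 also in the scaling of synapses. Both rose strongly with DFO and less so with the combination.

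Plk2 (chr13:110395046-110400844, plus strand) was the most abundant of the 10 genes in 3 of the 4 groups. Its level was 89.0, 88.7 and 86.3 FPKM in siControl and 64.2, 71.2 and 73.7 FPKM in siNCOA4, but 670.25, 714.5 and 608.6 FPKM in siControl+DFO and 441.9, 432.4 and 291.03 FPKM in siNCOA4+DFO. No 2 groups overlapped. With DFO it reached the 99.1th percentile of all genes tested by mean FPKM, from the 93.9th in siControl. DFO raised it 7.53-fold (log2 2.91, SE 0.14, adjusted p = 1.087e-08) and the combination 4.33-fold (log2 2.12, SE 0.14, adjusted p = 1.965e-07). The siRNA alone gave a log2 fold change of -0.34 that did not pass the test (adjusted p = 0.1355).

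Plk3 (chr4:117128655-117133963, minus strand) stood at 3.82, 4.80 and 5.78 FPKM in siControl and at 3.38, 4.77 and 3.44 FPKM in siNCOA4. In siControl+DFO it was at 32.1, 32.1 and 32.9 FPKM, the tightest group of any of the 10 genes with DFO, and in siNCOA4+DFO at 19.6, 21.9 and 13.97 FPKM. The untreated groups overlapped and both DFO groups stood apart from them and from each other. The rise was 6.71-fold with DFO (log2 2.75, SE 0.19, adjusted p = 2.563e-07) and 3.78-fold with the combination (log2 1.92, SE 0.19, adjusted p = 6.426e-06). Its exons overlap those of Tctex1d4 on the opposite strand over 84 bases, 3.32% of its exonic length.

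Phlda3 (chr1:135766119-135769136, plus strand) encodes a small protein with a pleckstrin homology domain that competes with the kinase AKT for membrane lipids. It was at 20.3, 20.7 and 20.1 FPKM in siControl and at 23.5, 16.8 and 18.8 FPKM in siNCOA4, and rose to 104.7, 128.3 and 105.4 FPKM in siControl+DFO and to 91.4, 78.05 and 46.6 FPKM in siNCOA4+DFO. The untreated groups overlapped, and the combination lay between them and DFO alone with a wide spread of 72.0 ± 23.0 FPKM (SD, n = 3). DFO gave a 5.50-fold rise (log2 2.46, SE 0.20, adjusted p = 9.934e-07) and the combination a 3.39-fold rise (log2 1.76, SE 0.20, adjusted p = 1.895e-05).

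Gdf15 (chr8:70629393-70632456, minus strand) encodes a secreted cytokine of the TGF-beta superfamily that is released by stressed cells. It had values of 0.348, 0 and 0.298 FPKM in siControl, and each siNCOA4 library listed it at 0. With DFO it reached 3.95, 7.28 and 4.15 FPKM in siControl+DFO and 5.97, 3.21 and 2.65 FPKM in siNCOA4+DFO. Every DFO library lay above every library without DFO, while the DFO groups overlapped. After scaling to a common depth the values were close to whole multiples of the smallest one: 1, 0 and 1 in siControl, 12, 26 and 14 in siControl+DFO, and 19, 11 and 7 in siNCOA4+DFO, and if 1 step is 1 read, few reads lie behind the gene even where it is highest. The rise with DFO passed the test (log2 4.27, SE 0.54, adjusted p = 3.459e-05), as did that with the combination (log2 3.86, SE 0.54, adjusted p = 8.929e-05). With no filter on low values the adjusted p was 0.0001133 with DFO and 0.0002662 with the combination. The size is set by the pseudocount, since the log2 change with DFO was 2.30 with a pseudocount of 1 and 5.58 with 0.01. No fold is given against siNCOA4, where the gene was listed at 0. It was the lowest of the 10 genes in every group.

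Sesn1 and Ephx1 stand for redox and metabolism. Sesn1 encodes sestrin 1, which restrains the growth kinase mTORC1 and lowers peroxides, and Ephx1 encodes the microsomal epoxide hydrolase that detoxifies reactive epoxides. They moved in opposite directions.

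Sesn1 (chr10:41809935-41908424, plus strand) was the only one of the 10 genes to fall. It was at 16.01, 16.2 and 13.8 FPKM in siControl and at 12.3, 13.1 and 13.9 FPKM in siNCOA4, and at 6.86, 6.03 and 5.07 FPKM in siControl+DFO and 6.03, 8.07 and 8.93 FPKM in siNCOA4+DFO. All 6 DFO libraries lay below all 6 others, and within each of these sets the siRNA groups overlapped. The level with DFO was 0.393 times that of siControl (log2 -1.35, SE 0.15, adjusted p = 1.42e-05), and with the combination 0.499 times (log2 -1.003, SE 0.15, adjusted p = 0.0001779). In siControl it was the fourth of the 10 genes by level and in siControl+DFO the eighth. Its relative Sesn2, which answers to both p53 and ATF4, went the other way, from 6.79 ± 0.423 FPKM in siControl to 66.8 ± 5.50 FPKM in siControl+DFO (SD, n = 3; log2 3.28, adjusted p = 8.622e-09).

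Ephx1 (chr1:180976210-181020904, minus strand) was abundant from the start and rose by less than 2-fold. It stood at 69.4, 71.03 and 67.7 FPKM in siControl, 93.6, 94.05 and 90.7 FPKM in siNCOA4, 121.7, 139.5 and 140.8 FPKM in siControl+DFO and 130.8, 150.2 and 117.4 FPKM in siNCOA4+DFO. The siNCOA4 libraries lay between those of siControl and those with DFO, and the DFO groups overlapped. The rise was 1.34-fold with the siRNA alone (log2 0.42, SE 0.09, adjusted p = 0.01075), 1.93-fold with DFO (log2 0.95, SE 0.09, adjusted p = 3.058e-06) and 1.90-fold with the combination (log2 0.93, SE 0.09, adjusted p = 4.722e-06). Of its windows of 75 bases, 0.373% also occur in the pseudogene Gm36961, and for the other 9 genes none is shared with another gene.

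**Figure D2:**
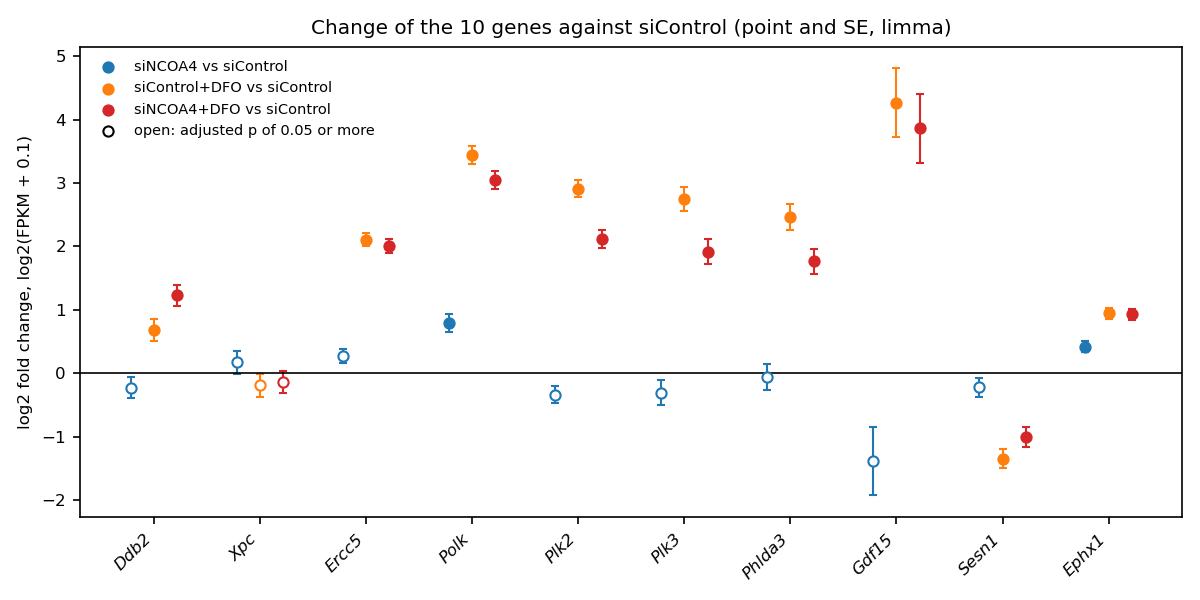
Log2 fold change against siControl (vertical axis, log2(FPKM + 0.1) scale, point and SE) of each gene in the other 3 groups; filled points have an adjusted p below 0.05. DFO alone reached from -1.35 for Sesn1 to 4.27 for Gdf15, and with the siRNA alone only Polk and Ephx1 are filled.

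By level, the order was Plk2, Ephx1, Phlda3, Sesn1, Xpc, Ercc5, Plk3, Polk, Ddb2 and Gdf15 in siControl, where the libraries of neighbours in the order overlapped for Xpc and Ercc5 and for Plk3 and Polk. With DFO it became Plk2, Ephx1, Phlda3, Polk, Ercc5, Plk3, Xpc, Sesn1, Ddb2 and Gdf15, with overlap for Ephx1 and Phlda3, for Sesn1 and Ddb2 and for Ddb2 and Gdf15. The mean level in siControl spanned the 2.98th percentile of all genes tested for Gdf15 to the 93.9th for Plk2.

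The Ncoa4 siRNA alone moved few of these genes. Polk and Ephx1 rose, and none of the 10 fell by limma's test. Of all genes tested, 4.52% rose and 7.21% fell in this comparison. At an unadjusted p below 0.05 the siRNA gave 3 genes higher and 2 lower, the added ones being Ercc5 on the higher side and Plk2 and Gdf15 on the lower, against 12.1% of all genes higher and 14.2% lower. None of the 10 passed the study's threshold of a fold change above 2, which 1.78% of all genes did, and 1 of the 10, Gdf15, had a fold above 2 with an unadjusted p below 0.05, against 3.22% of all genes. The median log2 fold change of the 10 was -0.14, that of all genes 0.00. Without Gdf15, 2 of the other 9 rose, none fell, and the median was -0.06. Without siControl replicate 2, the only siControl library in which Gdf15 was listed at 0, Gdf15 passed the threshold (limma, adjusted p = 0.01231). Leaving that library out removes the only siControl value at 0, so the call is no support for a fall. In the siControl libraries kept Gdf15 stood at 1 step, against 0 in siNCOA4, so the pseudocount sets the size of its change. Over the other alternatives its log2 change by the siRNA ran from -3.37 to -0.27. Without siNCOA4+DFO replicate 3, a library that enters this comparison through the shared estimate of the spread alone, Plk2 passed the test (log2 -0.34, adjusted p = 0.01432), as it did with the compared groups alone (adjusted p = 0.03131). The count past the test was thus 2 or 3 under all alternatives tried.

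Against siControl, the combination of siRNA and DFO gave the same counts as DFO alone, 8 genes higher and Sesn1 lower, where 25.4% of all genes rose and 23.4% fell. The comparisons share their siControl libraries. A fold change above 2 was reached by 7 of the risers, Ddb2 joining those of DFO alone, and by Sesn1, whose value lay at the threshold, against 9.24% of all genes on the higher and 5.93% on the lower side. The median log2 fold change of the 10 genes was 1.84, that of all genes 0.01. Without Gdf15, 7 of the other 9 rose, 6 of them past a fold change of 2, and the median was 1.76. Without siNCOA4+DFO replicate 3 the count of genes past the test was again 9, and 9 rather than 8 then passed the fold threshold, Ephx1 being the added one (log2 1.01). The same gene was added with quantile scaling (log2 1.02). The count was 7 with a pseudocount of 1 and without siControl replicate 1, siControl replicate 2 or siNCOA4+DFO replicate 1, where Sesn1 fell short of the fold threshold (log2 -0.92, -0.97, -0.96 and -0.84).

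Within Ncoa4-depleted cells, DFO raised 8 of the 10 genes and lowered Sesn1, beside 23.1% of all genes that rose and 19.6% that fell. The log2 fold changes of siNCOA4+DFO against siNCOA4 were 2.45 for Plk2 (SE 0.14, adjusted p = 1.086e-07), 2.26 for Polk (SE 0.14, adjusted p = 3.285e-07), 2.22 for Plk3, 1.82 for Phlda3, 1.73 for Ercc5, 1.45 for Ddb2 and 0.51 for Ephx1. Sesn1 fell by 0.78 on the log2 scale (SE 0.15, adjusted p = 0.001441). Xpc was at -0.31 and did not pass the test (adjusted p = 0.1876). The median over the 10 genes was 1.78, that over all genes 0.00. Without Gdf15, 7 of the other 9 rose and the median was 1.73.

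Under DFO, the Ncoa4 siRNA lowered the kinases and Phlda3 and raised Ddb2. Plk2 was at 0.576 times (log2 -0.80, SE 0.14, adjusted p = 0.002762), Plk3 at 0.564 times (log2 -0.83, SE 0.19, adjusted p = 0.01274) and Phlda3 at 0.617 times (log2 -0.70, SE 0.20, adjusted p = 0.03653) its level in siControl+DFO, and Ddb2 at 1.46 times (log2 0.55, SE 0.17, adjusted p = 0.04587). Of all genes tested, 6.22% rose and 10.2% fell. Without Gdf15, 1 of the other 9 rose, 3 fell, and the median log2 fold change was -0.10. None of the 10 passed a fold change above 2 by limma, at an adjusted or unadjusted p below 0.05, which 2.09% of all genes did with the adjusted p and 3.51% with the unadjusted p. The siNCOA4+DFO libraries lay below all siControl+DFO libraries for 4 genes, Polk, Plk2, Plk3 and Phlda3, where 20.1% of all genes did so, and above them for Ddb2 alone, where 14.7% did. Polk at log2 -0.39 (adjusted p = 0.08364) and Sesn1 at 0.35 (adjusted p = 0.1446) did not pass the test. Ercc5 at -0.10, Gdf15 at -0.40, Ephx1 at -0.02 and Xpc at 0.05 did not either.

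These differences differ in firmness. Leaving out siNCOA4+DFO replicate 3 kept the calls of Plk2 (log2 -0.60, adjusted p = 0.001945), Plk3 (log2 -0.64, adjusted p = 0.0478) and Ddb2 (log2 0.68, adjusted p = 0.03137) and ended that of Phlda3 (log2 -0.41, adjusted p = 0.08108). The call of Phlda3 was also lost without each of the 3 siControl+DFO libraries in turn, 4 of 12 libraries in all, with adjusted p from 0.06216 to 0.1212. That of Ddb2 was lost without 9 of the 12 libraries, with adjusted p from 0.05641 to 0.1517, and only the first replicates of siControl and siNCOA4 and the third of siNCOA4+DFO could be left out without its loss. Plk2 and Plk3 passed the test without each of the 12 libraries. Sesn1 passed it only without siNCOA4+DFO replicate 1 (log2 0.51, adjusted p = 0.03311), and Polk only without siNCOA4 replicate 2 (adjusted p = 0.042).

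**Figure D3:**
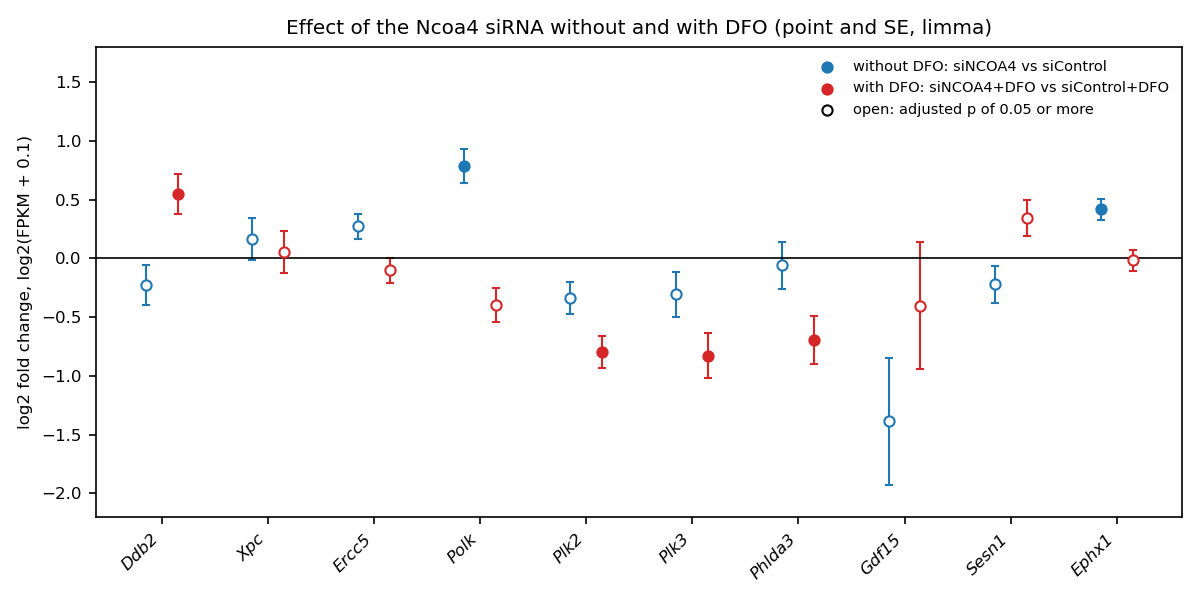
Log2 fold change by the Ncoa4 siRNA without DFO (siNCOA4 against siControl) and with DFO (siNCOA4+DFO against siControl+DFO) for each gene, with SE, on the log2(FPKM + 0.1) scale; filled points have an adjusted p below 0.05. Polk goes from 0.79 without DFO to -0.39 with it, the only gene of the 10 for which the difference between both effects passed the test. Its effect with DFO did not itself pass.

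Whether the siRNA acts differently with DFO was tested as an interaction, the siRNA effect with DFO minus that without it. Polk was the only gene of the 10 to pass, with a difference of -1.18 (log2, SE 0.20, adjusted p = 0.01677), among 1.43% of all genes that passed on the lower side. Its separate changes by siRNA and by DFO add to 4.23 on the log2 scale, and the combination gave 3.05. Without DFO, Polk ranged from 4.41 to 4.86 FPKM in siControl and from 6.58 to 10.2 FPKM in siNCOA4. With DFO it ranged from 49.5 to 53.6 FPKM in siControl+DFO and from 33.5 to 43.9 FPKM in siNCOA4+DFO. Without siNCOA4+DFO replicate 3 the difference was -1.07 (adjusted p = 0.02891), and without siControl+DFO replicate 1 it was -1.15 and no longer passed (adjusted p = 0.05219). Ephx1 at -0.44 (adjusted p = 0.0937) and Ddb2 at 0.77 (adjusted p = 0.1138) did not pass. For the kinases the difference was -0.46 for Plk2 (adjusted p = 0.2311) and -0.52 for Plk3 (adjusted p = 0.3445), so the siRNA effect on them is not shown to differ with and without DFO. No gene of the 10 passed on the higher side, where 0.671% of all genes did, and Sesn1 and Ddb2 had an unadjusted p below 0.05 there, against 8.41% of all genes. On the lower side 5 genes had an unadjusted p below 0.05, Polk, Ephx1, Ercc5, Plk2 and Phlda3. The share of all genes on that side is not given here. The median over the 10 genes was -0.40, that over all genes -0.01. Without Gdf15, 1 of the other 9 passed, on the lower side, and the median was -0.435.

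Over the 12 libraries, the gene whose log2(FPKM + 0.1) values were most like those of each of the 10 was looked up among genes with a mean of at least 1 FPKM. The libraries fall into those with and without DFO, and Pearson's r takes in that step. It was 0.998 for Plk2 with Epha2, an ephrin receptor, and for Phlda3 with Ulk1, the kinase that starts autophagy. Ercc5 with Abcb1b, Polk with Cpeb2 and Plk3 with Zbtb43 each gave 0.995. Lower values were found for Ephx1 with Agpat9 at 0.990, Gdf15 with Sec24a at 0.987, Sesn1 with Sec16b at 0.978, Ddb2 with Phf8 at 0.976 and Xpc with Mtg1 at 0.876.

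Other genes of the same pathways were read from lists chosen by function. Besides the 3 genes of each list with the largest change in the combination, those behind a count of 5 or fewer are named, chosen after their values were seen. The list counts stand beside the shares of all genes tested. With DFO 27.7% rose and 25.7% fell, with the combination 25.4% and 23.4%, and with the siRNA alone 4.52% and 7.21%. The interaction passed on the lower side for 1.43% and on the higher side for 0.671%. Of 6 genes of p53 and its feedback, 6 rose with DFO and 5 with the combination, all but Trp53 itself, which was at log2 0.75 with DFO and 0.39 with the combination. Mdm2, which ubiquitinates p53, went from 30.7 ± 2.05 FPKM in siControl to 2726 ± 185 FPKM in siControl+DFO and 1597 ± 362 FPKM in siNCOA4+DFO (SD, n = 3). Cdkn1a, the cell cycle inhibitor p21, rose by 4.89 on the log2 scale with DFO (adjusted p = 6.525e-10), and Ccng1, cyclin G1, by 2.24 (adjusted p = 5.598e-09). Under DFO, the Ncoa4 siRNA lowered Mdm2 (log2 -0.80, adjusted p = 0.003079), raised Ccng1 (log2 0.36, adjusted p = 0.02473) and left Cdkn1a at -0.42 (adjusted p = 0.08543). The siRNA without DFO raised Mdm2 (log2 0.72), Ccng1 (1.39) and Cdkn1a (1.82) and lowered none of the 6. The interaction passed on the lower side for the same 3 genes, Mdm2 (-1.51), Ccng1 (-1.03) and Cdkn1a (-2.24), and on the higher side for none. Of 11 tested p53 targets in growth arrest and death, 11 rose with DFO and with the combination, among them Btg2 (log2 6.39 with DFO), Trp53inp1 (4.91) and the death receptor gene Eda2r (3.55). With the siRNA alone 4 of the 11 rose, Btg2, Trp53inp1, Aen and Eda2r, and none fell. The interaction passed on the lower side for the same 4 genes (-1.38, -1.39, -0.95 and -1.49 in that order) and on the higher side for none.

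Of 15 further p53 targets in repair, redox and metabolism, 11 rose and 2 fell with DFO, and 10 rose and 1 fell with the combination. Gadd45a (log2 3.94 with DFO), Sesn2 (3.28) and Cpt1c (2.21) had the largest changes with the combination. The ones that fell were Polh (log2 -0.63) and Fancc (-1.11), the first also with the combination, so Sesn1 was not alone in its direction among listed p53 targets. With the siRNA alone 3 of the 15 rose, Gadd45a, Mgmt and Apaf1, and Lpin1 fell. The interaction passed on the lower side for Gadd45a (-1.09) and Ddit4 (-0.87) and on the higher side for none.

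Nucleotide excision repair as a whole did not follow Ercc5. Of 26 other genes of this pathway, 3 rose, 8 fell and 15 did not pass with DFO, and 4 rose and 7 fell with the combination. The risers with DFO were Ercc1 (log2 1.19), the partner of the nuclease XPF, Ercc6 (0.75) and Gtf2h1 (0.71), all under the 2.11 of Ercc5, and Uvssa (0.45) joined them with the combination. Pold1, a subunit of the replicative polymerase delta, fell by 0.84 on the log2 scale with DFO (adjusted p = 0.0002678). The median log2 fold change of the 26 was -0.13 with DFO. Of 9 genes of translesion synthesis, 4 rose and 1 fell with DFO. Rev1, the scaffold that binds polymerase kappa and its kin, rose from 11.5 ± 0.580 to 39.05 ± 2.51 FPKM (SD, n = 3; log2 1.75, adjusted p = 2.629e-08), Rev3l by 0.41, Rad18 by 0.59 and Ube2b by 0.48, while Polh, the polymerase eta gene, fell. All were under the 3.44 of Polk.

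Relatives of the 10 genes were split. Of 7 tested paralogs, 4 rose and 1 fell with DFO. Plk1, the mitotic polo kinase, went from 36.1 ± 1.18 to 7.72 ± 1.64 FPKM (SD, n = 3; log2 -2.23, adjusted p = 5.072e-07), opposite to Plk2 and Plk3. Inhba, which like Gdf15 encodes a TGF-beta superfamily ligand, rose by 2.30, Phlda1 by 2.47, Sesn2 by 3.28 and Plk4 by 0.48 on the log2 scale.

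Lists of factors that share targets with p53 were read too, beside the 27.7% of all genes that rose and the 25.7% that fell with DFO. Of 12 genes of the ATF4 stress response, the branch that also induces Gdf15, 11 rose and Psat1 fell with DFO and with the combination. The cystine transporter gene Slc7a11 rose by 3.59 and Atf3, which was listed at 0 in all 6 libraries without DFO, stood at 2.46 ± 0.974 FPKM in siControl+DFO. Like Gdf15, Atf3 entered the test through its DFO libraries alone, so its rise is no support for the count. All 10 immediate early genes rose with DFO and with the combination, Fos by 5.65, Fosb by 4.64 and Jun by 4.57 with DFO (log2). Under DFO the siRNA lowered 7 of them, Jun by 1.05 (adjusted p = 0.002364), against 10.2% of all genes. Fosb reached no more than 0.180 FPKM in siControl and 0.571 FPKM in siNCOA4, and passed the filter only with its DFO libraries. Its rise is thus no support for the count, and its siControl values lie near the pseudocount of 0.1. Of 13 genes of the NRF2 response and of xenobiotic metabolism, to which Ephx1 is also counted, 5 rose with DFO (Hmox1, Gclc, Txnrd1, Srxn1 and Ugdh) and 5 fell (Nqo1, Gsta4, Gstm1, Gstm5 and Cyp1b1), from Hmox1 at log2 3.06 to Cyp1b1 at -2.51. Which of these factors acts on the 10 genes was not tested.

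**Figure D4:**
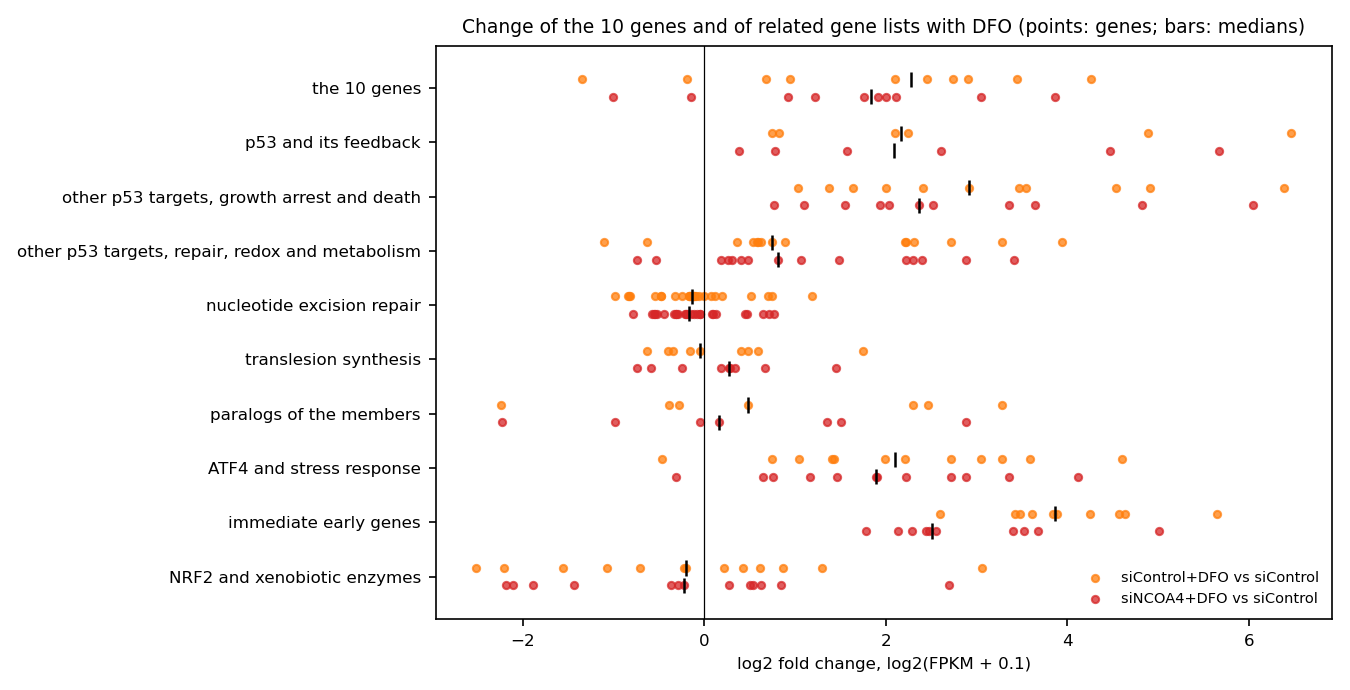
Log2 fold change against siControl (horizontal axis, log2(FPKM + 0.1) scale) of the 10 genes and of the genes of 9 related lists, with DFO and with the combination; points are genes, vertical bars list medians, and some genes are in more than 1 list. The medians with DFO were 2.28 for the 10 genes, 2.92 for p53 targets in growth arrest and death, 3.87 for immediate early genes and -0.13 for nucleotide excision repair.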

How the data were processed

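The authors deposited 1 table of FPKM per library, made from stranded total RNA sequencing with reads of 75 bases. The submitters' processing notes name Trimmomatic 0.33, FastQC, HISAT2 2.1.0, featureCounts and edgeR and the build mm10, without saying which tool gave the FPKM. Each table held 24347 entries, of which 4 sharing a name were left out, and 6929 of the 24343 kept were at 0 in all 12 libraries. FPKM are not counts, so the edgeR test of the study was replaced by limma 3.58.1 (R 4.3.3) on log2(FPKM + 0.1) in all libraries, a mean per group, a trend in the empirical Bayes step, and Benjamini-Hochberg adjustment over 11924 genes with at least 0.5 FPKM in at least 3 libraries. The fit was tested on simulated data. The labels call the replicates biological, without saying whether they were separate cultures on separate days, so p-values measure the spread between these samples. Total reads per library are unknown from FPKM, and relative depth was read from the steps of values below 0.6 FPKM.

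The members and lists were chosen with earlier results of these data known. Named were all 10 genes, Ncoa4, the 3 genes of each list with the largest change in siNCOA4+DFO against siControl among those that passed, and the gene with the highest Pearson r to each member among genes with a mean of at least 1 FPKM, to which genes behind small counts were added after their values were seen. Gene positions are from GENCODE M21 (GRCm38, the same assembly as mm10), and promoter windows from RefSeq (GRCm38.p6). Tables were read with Python 3.11.15 and pandas 2.3.3. The level of a marker gene is not reported here.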

Additional observations from a re-analysis of the deposited data

Results flagged for a closer look

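The effect of the Ncoa4 siRNA on Polk, the gene of DNA polymerase kappa, differed with and without DFO. The test of the difference gave -1.18 on the log2(FPKM + 0.1) scale (SE 0.20, adjusted p = 0.01677, limma interaction term), from 0.79 without DFO to -0.39 with it. The siRNA effect with DFO did not itself pass limma's test (adjusted p = 0.08364). Without siNCOA4+DFO replicate 3 that effect was -0.28 (adjusted p = 0.264), so a fall of Polk by the siRNA under DFO is not shown. Without DFO, Polk ranged from 4.41 to 4.86 FPKM in siControl and from 6.58 to 10.2 FPKM in siNCOA4. With DFO it ranged from 49.5 to 53.6 FPKM in siControl+DFO and from 33.5 to 43.9 FPKM in siNCOA4+DFO. Over the other alternatives the adjusted p of the difference ran from 0.01059 to 0.03959, and over the left-out libraries from 0.01259 to 0.05219. Polk was not alone among p53 targets in this. On the lower side, where 1.43% of all genes passed, so did 3 of 6 genes of p53 and its feedback. The same held for 4 of 11 targets in growth arrest and death and 2 of 15 in repair, redox and metabolism.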

How the results depend on the processing

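Alternatives were a pseudocount of 1 or 0.01, no filter or a filter at 2 FPKM, median-of-ratios or quantile scaling, the replicate block, the compared groups alone, no trend or robust limma, and each library left out. The interaction of each gene under them was added after the data were seen, without the compared groups alone. With DFO against siControl, the combination against siControl and the combination against siNCOA4, 9 of the 10 genes passed in each. Past a fold change of 2, the count for the combination against siControl was 7 to 9, and the siRNA alone gave 2 or 3 genes past the test. For siNCOA4+DFO against siControl+DFO the count fell from 4 to 2 with no filter, with quantile scaling and with the compared groups alone, and ranged from 2 to 4 over the left-out libraries. For the interaction it ranged from 0 to 1 and, past a fold change of 2 by the siRNA alone, from 0 to 1 over the left-out libraries. Ddb2 in siNCOA4+DFO against siControl+DFO had an adjusted p of 0.06744 with no filter, 0.07207 with quantile scaling and 0.09431 with the compared groups, and Phlda3 0.06288, 0.08101 and 0.1039, and 0.06572 without a trend. No sign was found that the replicate numbers pair the samples. Over 18 same-numbered pairs, r of the deviations from group means ran from -0.127 to 0.1156, and the own number correlated best in 9 of 36 cases. The labels do not say whether same-numbered samples were run together, and these correlations cannot exclude it. With the replicate block, Ddb2 in siNCOA4+DFO against siControl+DFO had an adjusted p of 0.06462, and no other call among the 10 genes changed. Signs turned only for values that passed no test. Over the left-out libraries, Xpc ran from -0.28 to 0.031 in siNCOA4+DFO against siControl (0.018 without siControl replicate 2, highest without siNCOA4+DFO replicate 3), from -0.085 to 0.22 against siControl+DFO (-0.025 without siControl+DFO replicate 2, lowest without siNCOA4+DFO replicate 1) and from -0.28 to 0.053 in the interaction (highest without siNCOA4+DFO replicate 3). Ephx1 in siNCOA4+DFO against siControl+DFO ran from -0.11 to 0.068, positive without siControl+DFO replicates 2 and 3 (0.014 and 0.021) and without siNCOA4+DFO replicate 3, and Phlda3 with the siRNA alone from -0.19 to 0.046, positive without siNCOA4 replicate 2. With quantile scaling, Ephx1 was at 0.16 and Ercc5 at 0.021 in siNCOA4+DFO against siControl+DFO, and with a pseudocount of 1 the interaction of Gdf15 was -0.058. Apart from the alternatives' own construction, the cause of these changes was not tested. Over all genes, the count past a fold change of 2 went from 212 to 112 with a pseudocount of 1 for the siRNA alone and from 249 to 129 for siNCOA4+DFO against siControl+DFO. Absolute depth is unknown, so no counting error can be set beside low values such as those of Gdf15.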
